A study of Mus musculus with 24 samples.

Results

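Cubn, Amn, Lrp2 and Dab2, 4 genes of receptor-mediated uptake that are characteristic of the visceral endoderm, were followed by poly(A) RNA sequencing in mouse embryonic stem cells and in the embryoid bodies grown from them. These 4 rows of the 23284 gene symbols in the deposited count table were chosen by name from earlier results on the same counts, in which Dab2 and Cubn differed between the cell lines. Their differences between lines are therefore described without a test, while their changes between culture states, which the choice did not use, were tested. All 4 passed the filter on low counts, which left 15558 genes.

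Cubilin, encoded by Cubn, is a very large extracellular receptor with no membrane anchor of its own. Amnionless, from Amn, is the small transmembrane protein that carries cubilin to the cell surface and ties it to the endocytic machinery. Megalin, from Lrp2, is a giant member of the LDL receptor family that works beside the cubilin-amnionless pair, and Dab2 is the cytoplasmic adaptor that links their tails to clathrin. The yolk sac visceral endoderm and the kidney proximal tubule use these proteins to take up carriers of lipids, vitamins and iron, and Dab2 is also an early gene of the primitive endoderm. Megalin is also made outside the endoderm, in the early neuroepithelium.

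The cells were C57BL/6 embryonic stem cells kept with serum and LIF on layers of mouse embryonic fibroblasts, carrying a conditional allele of Eed. EED belongs to the core of PRC2, which methylates histone H3 at genes kept silent by Polycomb. The line f/f was not given tamoxifen. The KO line was made with 800 nM 4-OH tamoxifen, and KO+WT and KO+N-KR are KO cells that also carry wild-type EED or the form labelled N-KR, a name the labels do not spell out. Both rescue lines received tamoxifen too, their genotype field names the knockout alone, and neither the promoter of the added EED nor the number of clones is stated. Each of the 4 lines was sampled in 3 states: the state labelled 3i, embryoid bodies at day 1 and embryoid bodies at day 2.

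The promoters of Cubn and Lrp2 are printed here because these 2 receptor genes, which work as partners, rose together on leaving 3i but ordered the lines differently, and because their upstream sequences differ in CpG content, a property often discussed for Polycomb targets. Each window is the 250 bases before the start in the RefSeq promoter table (GRCm38.p6), written 5′ to 3′ on the gene's strand, with every CG dinucleotide in capitals. The Cubn window is chr2:13491877-13492126 on the minus strand and the Lrp2 window is chr2:69586030-69586279, also on the minus strand.
Cubn: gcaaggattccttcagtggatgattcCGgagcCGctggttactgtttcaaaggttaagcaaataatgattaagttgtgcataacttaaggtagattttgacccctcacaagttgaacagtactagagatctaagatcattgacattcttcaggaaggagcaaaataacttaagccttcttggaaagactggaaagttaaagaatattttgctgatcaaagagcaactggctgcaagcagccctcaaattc
Lrp2: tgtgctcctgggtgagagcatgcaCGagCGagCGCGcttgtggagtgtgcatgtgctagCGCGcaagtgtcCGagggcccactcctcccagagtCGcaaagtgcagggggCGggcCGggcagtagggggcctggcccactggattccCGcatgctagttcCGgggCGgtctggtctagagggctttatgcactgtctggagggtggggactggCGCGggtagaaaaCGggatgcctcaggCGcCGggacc
The Cubn window holds 2 CG dinucleotides and 39.6% G and C bases. The Lrp2 window holds 18 CG dinucleotides and 66.4% G and C bases, against a median of 6 CG dinucleotides over 32851 windows in the table. All 4 genes were found in that table. Amn has 11 CG dinucleotides at chr12:111270846-111271095 (plus strand). Dab2 has 2 windows on the plus strand, one with 2 CG dinucleotides at chr15:6299539-6299788 and one with 17 at chr15:6386498-6386747. The letters GATAA, the core that GATA factors bind, were searched on both strands and occur in 22.6% of all windows. Among the windows of these genes there was 1 match, in the CG-poor Dab2 window, beginning 178 bases before the start. AACAAT, a SOX core, and TATAAA, the TATA box, had no match in these windows and occur in 9.42% and 12.4% of all windows.

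Each library held between 7553683 and 14426034 counts. Counts of the paired libraries of a group varied by 1.10 to 1.18 times binomial sampling, against 3.48 to 15.5 times between lines of a state. Separate cultures are not stated for them, so they were summed to 1 sample, and each line in each state has no replicate. Levels are CPM, that is counts scaled to the size of the library, with TMM scaling, and the 95% exact Poisson intervals given with them cover counting error only. Changes are log2 values ± SE from an additive edgeR fit of line and state to the 12 sums, with its quasi-likelihood test and Benjamini-Hochberg adjustment over all genes tested. The samples of a state are then the 4 lines and those of a line are the 3 states, so the p-values measure how evenly a change recurs over them. Eed itself stood at 131 to 219.5 CPM in f/f, 102 to 174 in KO, 188 to 386 in KO+WT and 122 to 181 in KO+N-KR, with f/f above KO in all 3 states. The deleted part is not stated and reads were counted over the whole gene. This level therefore cannot check the deletion, or how much of the message came from the added EED.

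Of the uptake genes, 3 rose as the cells left 3i and formed embryoid bodies, on 2 schedules. Lrp2 and Cubn made most of their rise by day 1, whereas Dab2 made most of its rise between day 1 and day 2. Amn stayed low in every state.

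Cubn, the cubilin gene, stood at 5.13 CPM in f/f, 7.17 in KO, 4.04 in KO+WT and 13.1 in KO+N-KR at 3i. At day 1 the same lines had 22.4, 35.0, 10.9 and 58.9 CPM, and at day 2 they had 35.9, 41.0, 15.3 and 55.4 CPM. Every embryoid body sample was above the 3i sample of its own line, though the KO+WT embryoid bodies at day 1 lay below KO+N-KR at 3i. From 3i to day 1 Cubn rose by 2.06 ± 0.14 on the log2 scale, or 4.17-fold (n = 4 lines, higher in 4 of 4, edgeR adjusted p = 3.169e-08). From day 1 to day 2 the change was 0.31 ± 0.12 (adjusted p = 0.04808), with 3 lines higher and KO+N-KR at -0.088. That second step lost its call in 5 of 11 alternative fits, and without f/f it was 0.18 (adjusted p = 0.2722). Over the whole interval from 3i to day 2 Cubn rose 5.16-fold (2.37 ± 0.14, higher in 4 of 4 lines, adjusted p = 8.287e-09).

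Amn, whose product anchors cubilin, gave few reads. Its levels at 3i were 2.56 CPM in f/f, 1.26 in KO, 1.35 in KO+WT and 3.36 in KO+N-KR. At day 1 they were 1.53, 1.73, 0.340 and 3.71 CPM in the same order, the KO+WT value resting on 7 reads (95% interval 0.137 to 0.701 CPM), and at day 2 they were 2.04, 2.06, 1.74 and 4.21 CPM. The KO+WT sample at day 1 was the lowest of the 12, and the other 11 spanned 1.26 to 4.21 CPM with the states overlapping. Amn did not pass the test at day 1 against 3i (-0.30 ± 0.29, adjusted p = 0.383), at day 2 against day 1 (0.55 ± 0.28, adjusted p = 0.1164) or at day 2 against 3i (0.25 ± 0.28, adjusted p = 0.4406). With 7 to 85 counts per sample, the error of each Amn change was 0.28 to 0.29, about the size of the smallest of them.

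Lrp2, the megalin gene, had the largest change between states of the 4 genes. At 3i it stood at 9.37 CPM in f/f, 10.5 in KO, 12.3 in KO+WT and 13.9 in KO+N-KR. At day 1 the lines had 123, 129, 149 and 147 CPM, and at day 2 they had 131, 148, 162 and 186 CPM. The 8 embryoid body samples did not overlap the 4 samples at 3i. Lrp2 rose by 3.58 ± 0.06 on the log2 scale by day 1, or 12.0-fold (higher in 4 of 4 lines, between 3.40 and 3.70, adjusted p = 1.32e-13). It rose further by 0.19 ± 0.05 from day 1 to day 2 (higher in 4 of 4 lines, adjusted p = 0.008155), a call that ended without KO+N-KR (0.14, adjusted p = 0.05529). By day 2 it was 13.7-fold above 3i (3.77 ± 0.06, adjusted p = 5.181e-14).

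Dab2, the adaptor gene, stood at 4.17 CPM in f/f, 6.75 in KO, 5.33 in KO+WT and 8.75 in KO+N-KR at 3i. At day 1 the levels were 5.36, 8.69, 4.18 and 15.6 CPM, and at day 2 they were 16.3, 21.6, 13.1 and 30.3 CPM. The states overlapped at 3i and day 1, and at day 2 the lowest line lay below KO+N-KR at day 1. From 3i to day 1 the change was 0.36 ± 0.15 (adjusted p = 0.04893), with 3 of 4 lines higher and KO+WT at -0.34, and 7 of 11 alternative fits lost the call (adjusted p from 0.002756 to 0.4407). From day 1 to day 2 Dab2 rose 2.52-fold (1.33 ± 0.14, higher in 4 of 4 lines, adjusted p = 4.127e-06). Against 3i, day 2 was 3.24-fold higher (1.70 ± 0.14, adjusted p = 2.428e-07).

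**Figure D1:**
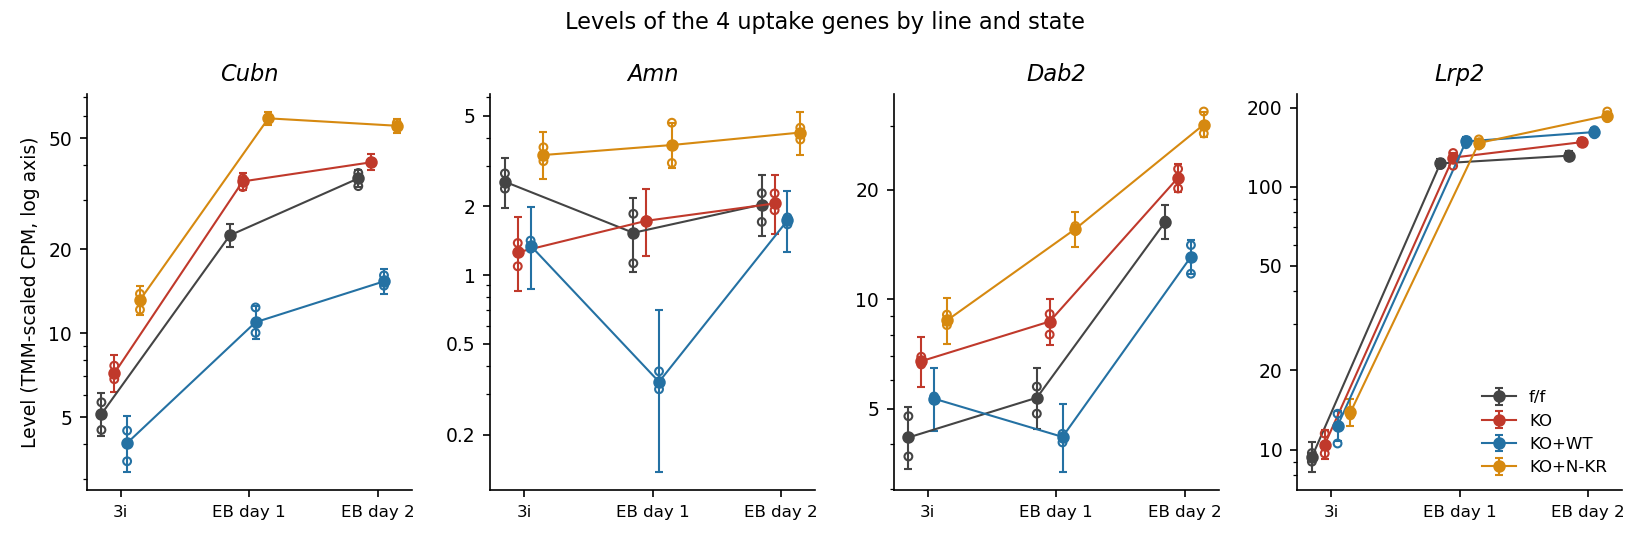
Level of each gene (TMM-scaled CPM, log axis) at 3i, embryoid body day 1 and day 2. Each filled point is 1 line in 1 state, and the bars are 95% exact Poisson intervals. Open circles are the single libraries summed in that point and are not further samples. The 4 lines run together for Lrp2, from 9.37 to 13.9 CPM at 3i to 131 to 186 at day 2, while Cubn is spread from 15.3 in KO+WT to 55.4 in KO+N-KR at day 2.

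In each of the 3 state comparisons, 3 of the 4 genes (Cubn, Dab2 and Lrp2) were called higher and none lower. Over all genes tested, 31.2% were called higher at day 1 against 3i, 29% at day 2 against day 1 and 32.9% at day 2 against 3i, so being called in these comparisons was common. Of 9 visceral endoderm markers tested, 1 (Trf, the iron carrier) rose and none fell at day 1 against 3i. That is the interval in which Cubn and Lrp2 made most of their rise. At day 2 against day 1, where Dab2 made most of its rise, 6 markers rose and 1 (Trf) fell (median 2.52). At day 2 against 3i, 6 rose and 1 fell (median 2.98). Several of the markers were near the floor, with Afp at most 0.851 CPM, Ttr 1.25 and Apoa1 2.06. Of 9 endoderm transcription factors, none rose and 2 fell at day 1 against 3i, where 33.5% of all genes were called lower. At day 2 against 3i, 4 of these factors rose and 1 fell. The part of endoderm cell number in the rise of the uptake genes was not tested. In sums of whole cultures, more cells of a type and more RNA per cell cannot be told apart.

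Per kilobase of exon, which allows levels of different genes to be compared, megalin message was above the other 3 in every line in embryoid bodies. The merged exons in the GENCODE M21 annotation (GRCm38) span 14935 bases for Cubn, 1843 for Amn, 7342 for Dab2 and 16701 for Lrp2. At 3i the ranges of the 4 genes overlapped, with 0.270 to 0.880 CPM per kilobase for Cubn, 0.683 to 1.82 for Amn, 0.567 to 1.19 for Dab2 and 0.561 to 0.829 for Lrp2. At day 2 Lrp2 stood at 7.86 to 11.2 CPM per kilobase, against 1.78 to 4.12 for Dab2, 1.03 to 3.71 for Cubn and 0.941 to 2.29 for Amn. The short Amn message was thus near the cubilin message per kilobase in KO+WT at day 2 (0.941 against 1.03) and below it in KO+N-KR (2.29 against 3.71). In that annotation, 368 exon bases of Cubn lie under the opposite-strand gene Gm13270 and 211 of Dab2 under the pseudogene Gm18888. How strand was treated in counting is not given in the sources used here. Reads from those stretches cannot be told apart.

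Between lines, the values that chose these genes are described next. Cubn kept 1 order of lines in all 3 states, with KO+N-KR highest, then KO, then f/f, and KO+WT lowest. Its counting intervals overlapped between f/f and KO+WT at 3i (4.28 to 6.10 against 3.17 to 5.06 CPM) and between KO and f/f at day 2 (38.4 to 43.7 against 33.4 to 38.5 CPM). Amn was highest in KO+N-KR in each state, although at 3i its interval overlapped that of f/f (2.62 to 4.23 against 1.97 to 3.27 CPM). Dab2 was highest in KO+N-KR and next in KO throughout, with f/f lowest at 3i and KO+WT lowest in embryoid bodies. At 3i the Dab2 intervals of each pair of neighbours in that order overlapped, and at day 1 only those of f/f and KO+WT did. Lrp2 was lowest in f/f and next lowest in KO in every state. Its neighbouring intervals overlapped at 3i, and at day 2 the 4 lines were apart beyond counting error, from 127 to 136 CPM in f/f to 181 to 193 in KO+N-KR.

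KO against f/f, the comparison of lines with and without tamoxifen-deleted Eed, gave small fitted differences for the uptake genes. Over the 3 states Dab2 was 0.57 ± 0.17 higher in KO and Cubn 0.42 ± 0.15 higher, each in 3 of 3 states. Lrp2 differed by 0.13 ± 0.07 and Amn by -0.29 ± 0.33. The states disagreed for Amn, with -0.98 at 3i, 0.17 at day 1 and 0.02 at day 2. Genotype, tamoxifen and line history cannot be told apart here.

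KO+WT against KO, which sets the line given back wild-type EED beside the line without it, gave lower values for cubilin and the adaptor. Cubn was 1.39 ± 0.16 lower on the log2 scale, or 2.63-fold, with -0.82 at 3i, -1.67 at day 1 and -1.41 at day 2. Dab2 differed by -0.70 ± 0.17 and was lower in 3 of 3 states, most at day 1 (-1.04). Amn differed by -0.57 ± 0.36, almost all of it at day 1 (-2.07), with 0.09 at 3i. Lrp2 differed the other way by 0.18 ± 0.07. Within a single state, a pair of samples was also compared by fold only, a gene being set apart at 2-fold or more if its higher sample reached 5 CPM. By that rule, Cubn and Dab2 were lower at day 1, Cubn alone at day 2 and neither at 3i. Over all genes that reached 5 CPM, 1.02% were lower by that rule at day 1, 1.9% at day 2 and 0.312% at 3i. Amn never reached 5 CPM and could not enter that count.

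KO+N-KR against KO gave higher values for each of the 4 genes in each of the 3 states. The differences were 0.67 ± 0.14 for Cubn, 1.17 ± 0.31 for Amn, 0.58 ± 0.16 for Dab2 and 0.30 ± 0.07 for Lrp2.

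Between the 2 rescue lines, KO+N-KR stood above KO+WT by 2.06 ± 0.16 for Cubn, or 4.18-fold, with 1.68 at 3i, 2.42 at day 1 and 1.85 at day 2. Amn was 1.75 ± 0.33 higher and Dab2 1.29 ± 0.17 higher, each in 3 of 3 states. The Amn values were 1.26 at 3i, 3.14 at day 1 and 1.24 at day 2. The day 1 value rests on 7 reads in KO+WT, and without EB day 1 the Amn difference was 1.29. Lrp2 differed by 0.11 ± 0.07, with -0.02 at day 1. By the 2-fold rule Cubn was higher in all 3 states and Dab2 in embryoid bodies at both days. Genes higher by that rule made up 0.147% of those reaching 5 CPM at 3i, 0.265% at day 1 and 0.111% at day 2. Since the genes were chosen with line differences known, nothing is read from these counts. Eed message was also higher in KO+WT than in KO+N-KR in all 3 states (386 against 168 CPM at 3i). The form of EED, the level of Eed message and line history cannot be told apart here.

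KO+WT against f/f gave -0.98 ± 0.16 for Cubn, -0.87 ± 0.35 for Amn, -0.14 ± 0.17 for Dab2 and 0.31 ± 0.07 for Lrp2. The comparisons between lines share samples, so the 5 sets of values are not separate observations. Where a rescue line is set against KO, the added EED, the level of Eed message and line history cannot be told apart. Where KO+WT is set against f/f, tamoxifen cannot be told apart from these either.

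**Figure D2:**
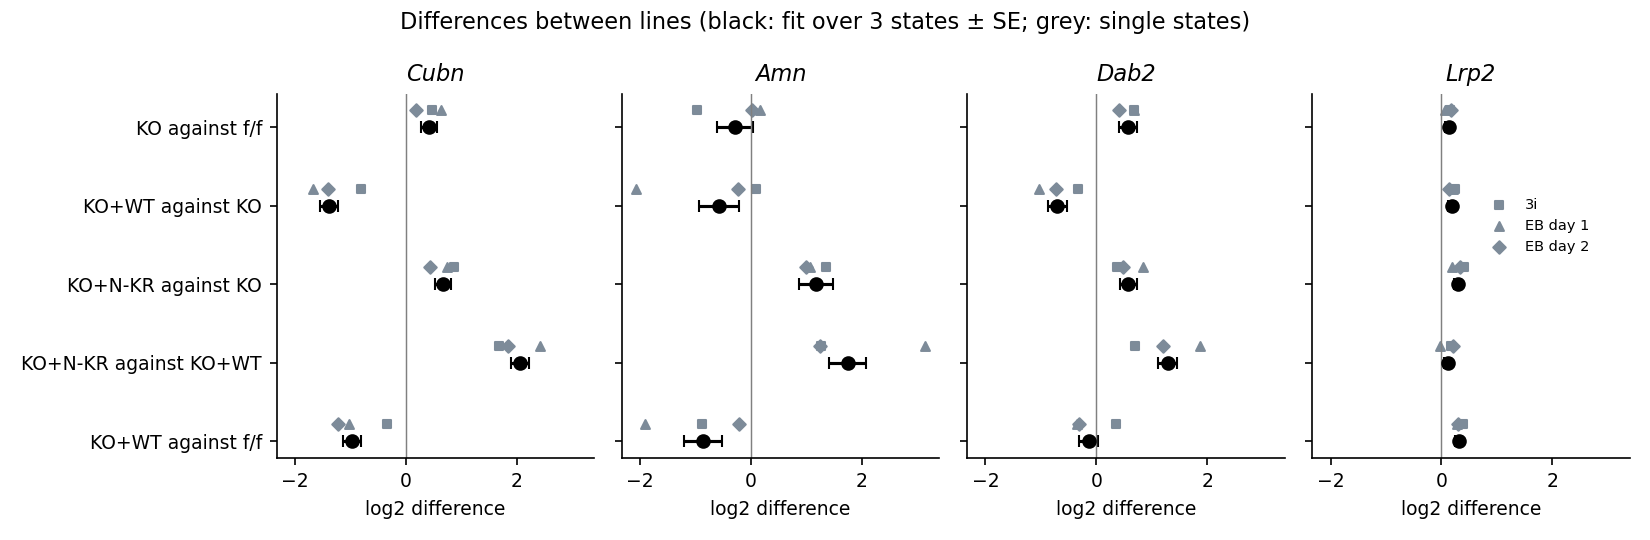
Differences between lines for each gene (log2), with the fit over 3 states ± SE in black and the single states in grey. Cubn, Amn and Dab2 stand right of 0 for KO+N-KR against KO+WT (2.06, 1.75 and 1.29) while Lrp2 stands near it (0.11). The Amn value for day 1 in that comparison (3.14) rests on 7 reads in KO+WT.

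Markers of the cell types that could carry this program, and of the feeder cells, were measured beside these differences. These lists and those that follow were also chosen with earlier results of these data known. Their calls and adjusted p-values between lines are therefore a description and not independent support. Of 9 endoderm transcription factors, Gata6, Gata4 and Sox7, which act early in primitive endoderm, fell in KO+WT against KO (-1.41 ± 0.34, adjusted p = 0.014; -1.20 ± 0.27, adjusted p = 0.009623; -1.16 ± 0.34, adjusted p = 0.03524). By edgeR no other of the 9 was called, while DESeq2 called 4, and 4 fell with library totals. The list's median was -0.77 against 0.01 over all genes, of which 8.63% were called lower and 6.76% higher. Sox17, a partner of the GATA factors, did not pass (-0.89 ± 0.35, adjusted p = 0.1032), nor did Hnf4a, a regulator of mature visceral endoderm (-0.64 ± 0.36, adjusted p = 0.2618). In KO+N-KR against KO+WT none of the 9 was called by edgeR, with 5 at an unadjusted p under 0.05 and 2 called by DESeq2, and the list's median was 1.07. Over all genes, 0.289% were called higher and 0.257% lower in that comparison. Gata6 there was 1.31 ± 0.35 (adjusted p = 0.1824) and Gata4 1.11 ± 0.27 (adjusted p = 0.1262). In KO against f/f edgeR called 1 of the 9, Sox7 (1.42 ± 0.35, adjusted p = 0.02902), where 4.41% of all genes were called higher. In KO+WT against f/f it called 1, Gata6 (-1.345 ± 0.34, adjusted p = 0.02704), where 5.18% were called lower.

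The levels of these regulators were low. Gata6 levels at 3i, day 1 and day 2 were 2.16, 4.90 and 4.67 CPM in f/f, 1.89, 3.92 and 6.72 in KO, 1.72, 1.17 and 1.62 in KO+WT, and 3.64, 3.67 and 3.62 in KO+N-KR. KO+WT was lowest in each state, as it was for Cubn, while KO+N-KR was not highest at day 1 or day 2. Gata4 reached its highest level, 9.45 CPM, in KO at day 2 and its lowest, 1.26, in KO+WT at day 1. The summed level of the 9 factors was 17.7 to 20.7 CPM in f/f, 18.5 to 35.6 in KO, 8.56 to 17.3 in KO+WT and 18.1 to 22.8 in KO+N-KR.

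Visceral endoderm products ranged from near 0 to 44.6 CPM. Afp, the fetal albumin-like protein, was at most 0.851 CPM and listed at 0 in 7 of the 12 samples, Ttr, a thyroid hormone carrier, was at most 1.25 CPM, and Cer1, a Nodal antagonist, was at most 0.139 CPM. Apob, the lipoprotein scaffold, reached 9.45 CPM in KO at day 2 and Trf, the iron carrier, ranged from 8.95 to 44.6 CPM. Of the 9 of 10 visceral endoderm markers tested, 5 fell in KO+WT against KO, among them Apob (-1.19 ± 0.35, adjusted p = 0.03515) and Trf (-0.52 ± 0.11, adjusted p = 0.007763), and none rose, where 8.63% of all genes were called lower; DESeq2 called 1 of the 9. None changed by the test in KO+N-KR against KO, where DESeq2 also called 0 and 3 had an unadjusted p under 0.05. In KO+N-KR against KO+WT 1 of the 9 was called, Trf, which was higher, and 4 had an unadjusted p under 0.05. DESeq2 called 1 there, and 0.289% of all genes were called higher by edgeR. The list's median was 1.055 against 0.003 over all genes. The summed level of the 10 was 22.1 to 48.3 CPM in f/f, 20.1 to 41.3 in KO, 17.1 to 32.9 in KO+WT and 24.8 to 49.0 in KO+N-KR. The highest sum of each line was at day 1 and was mostly Trf, at 42.7, 37.0, 29.85 and 44.6 CPM in the same order. In each sample 3 to 8 of the 10 were under 1 CPM. The part of endoderm cell number in the uptake genes' differences was not tested.

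Of 12 parietal endoderm markers, 4 rose in KO+N-KR against KO and 3 in KO+N-KR against KO+WT, none falling in either. In KO+N-KR against KO 6.36% of all genes were called higher and 8.62% lower, and in KO+N-KR against KO+WT 0.289% were called higher. In KO+WT against KO 1 of the 12 rose and 2 fell, where 6.76% of all genes were called higher and 8.63% lower. Col4a1, a basement membrane collagen, was 0.86 ± 0.09 higher in KO+N-KR than in KO+WT (adjusted p = 0.0004112) and Lama1, a laminin chain, 0.96 ± 0.12 higher (adjusted p = 0.0009127). Their summed level was 887 to 1457 CPM in f/f, 949 to 1565 in KO, 876 to 1772 in KO+WT and 1105 to 1868 in KO+N-KR. Dab2 and Lamb1 are both made by parietal endoderm, and the part of those cells was not tested.

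Feeder fibroblast markers were highest in KO+WT at 3i. There the summed level of the 20 markers was 754 CPM in f/f, 731 in KO, 1018 in KO+WT and 659 in KO+N-KR, and in embryoid bodies it was 121 to 200 CPM. Of 19 tested, 6 rose and none fell in KO+WT against KO (4 with library totals and 4 by DESeq2), 10 rose and none fell in KO+WT against f/f, and 15 fell with none rising at day 1 against 3i. The shares over all genes were 6.76% higher in KO+WT against KO, 3.46% higher and 5.18% lower in KO+WT against f/f, and 33.5% lower at day 1. Col1a1, a fibroblast collagen, was at 351 CPM in KO+WT at 3i and 222 in KO. None of the 20 was at 0 in all samples. The part of feeder cells in the differences of the uptake genes was not tested. Of 8 trophoblast markers tested, 1 rose and 2 fell in KO+WT against KO, where 8.63% of all genes were called lower. Kidney tubule and gut markers summed to at most 3.86 CPM.

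**Figure D3:**
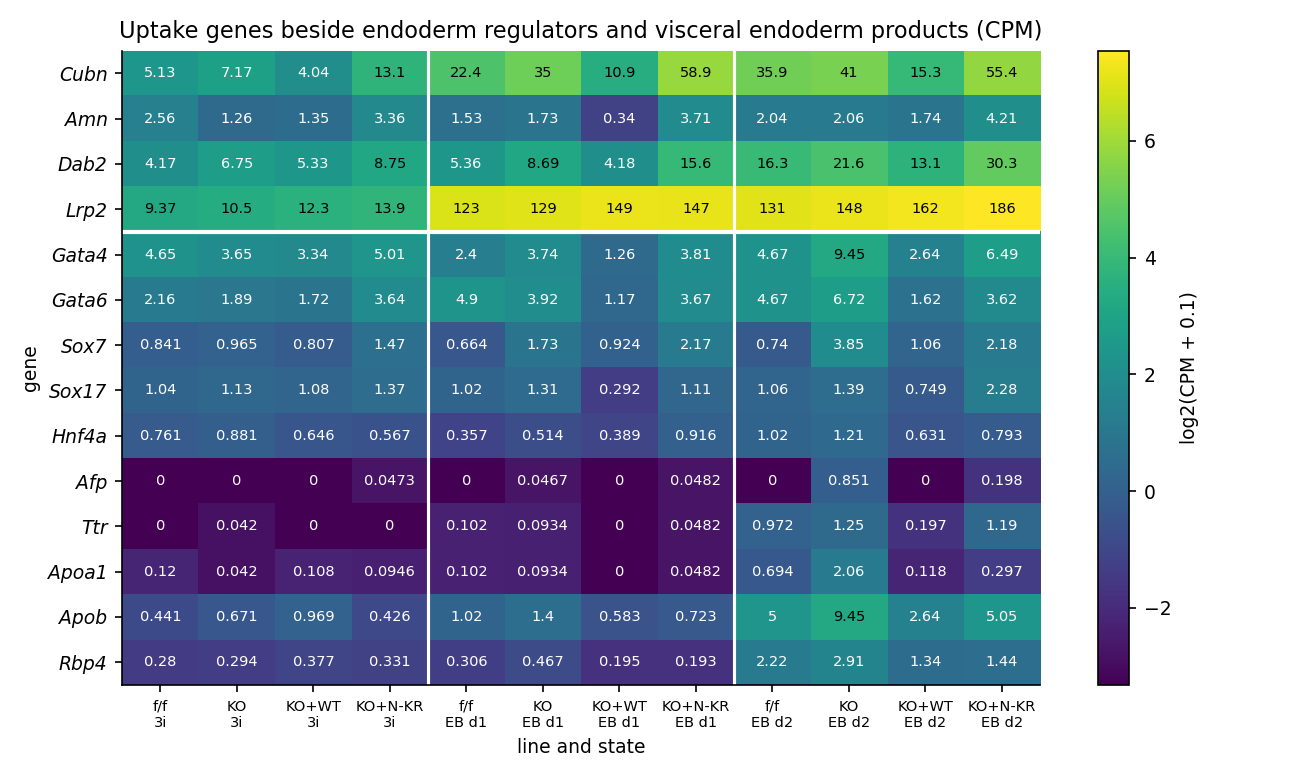
Levels of the 4 uptake genes, endoderm regulators and visceral endoderm products as log2(CPM + 0.1), 1 column per line and state. The Cubn and Lrp2 rows brighten from 3i to embryoid bodies, and Afp (at most 0.851 CPM) and Ttr (at most 1.25 CPM) are among the darkest rows.

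The rest of the uptake machinery was called in shares near those of all genes at day 1, but over the whole interval to day 2 more of it fell. Of 36 genes for the clathrin coat, the AP2 complex, adaptors, the receptor chaperone and early endosomes, 8 rose and 14 fell at day 1 against 3i, with a median of -0.08 against -0.02 over all genes, of which 31.2% were called higher and 33.5% lower. With library totals in place of TMM the counts were 5 and 16. Slc9a3r1, a PDZ scaffold of the brush border, rose 2.77-fold at day 1 (1.47 ± 0.06, adjusted p = 5.279e-10). Myo6, the motor that carries uncoated vesicles, fell by 1.31 ± 0.09 (adjusted p = 3.773e-08) and rose again by 1.04 ± 0.09 at day 2 against day 1 (adjusted p = 9.278e-07). Lrpap1, the chaperone that keeps megalin from binding ligands too early, fell at day 1 by 0.76 ± 0.06 (adjusted p = 2.197e-07) while Lrp2 rose. From day 1 to day 2, 7 of the 36 rose and 14 fell, where 25.6% of all genes were called lower (10 and 12 with library totals), and Cltb, a clathrin light chain, fell by 1.37 ± 0.10 (adjusted p = 1.403e-07). At day 2 against 3i, 4 of the 36 rose and 20 fell (4 and 21 with library totals). The median there was -0.20 against 0.02 over all genes. Of all 15558 genes, 5117 were called higher and 4674 lower in that comparison.

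Between lines, 5 of the 36 machinery genes rose and none fell in KO against f/f, where 4.41% of all genes were called higher and 4.39% lower, with Clcn5, the endosomal chloride exchanger, at 0.50 ± 0.12 (adjusted p = 0.02221) and Eps15, a coat assembly protein, at 0.35 ± 0.06 (adjusted p = 0.007384). In KO+WT against KO 1 rose and 5 fell, and in KO+N-KR against KO 1 rose and 4 fell, where 8.63% and 8.62% of all genes were called lower. Gipc1, a PDZ protein that binds the megalin tail, was lower in both rescue lines (-0.52 ± 0.07, adjusted p = 0.00057, and -0.56 ± 0.07, adjusted p = 0.0003631). Fcho1, which starts clathrin pits, was too (-0.54 ± 0.09, adjusted p = 0.001477, and -0.68 ± 0.09, adjusted p = 0.0003857). Between the rescue lines none of the 36 was called by edgeR, with 3 at an unadjusted p under 0.05 and 0 called by DESeq2. Lrpap1 there differed by 0.20 ± 0.07 (adjusted p = 0.4962).

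Of the other members of the LDL receptor family, 12 of 13 were tested, and 1 rose and 8 fell at day 1 against 3i, with a median of -0.52. Over all genes 31.2% were called higher and 33.5% lower. Lrp1, the other giant receptor of the family, fell by 1.26 ± 0.07 (adjusted p = 8.08e-09), and Vldlr, the very-low-density lipoprotein receptor, fell by 1.74 ± 0.17 (adjusted p = 7.134e-07). From day 1 to day 2, 8 rose and 1 fell, against 29% and 25.6% of all genes. Vldlr then rose by 1.84 ± 0.17 (adjusted p = 1.066e-06) and Lrp8, a reelin receptor, by 1.03 ± 0.10 (adjusted p = 1.952e-06). In KO+N-KR against KO+WT none of the 12 was called by edgeR, with 2 at an unadjusted p under 0.05 and 0 by DESeq2.

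Cargo genes of these receptors were mixed. Of 17 symbols listed, 16 were found and 11 were tested, and 4 rose and 2 fell at day 1 against 3i. The shares of all genes called there were 31.2% higher and 33.5% lower. Trf rose 2.37-fold (1.24 ± 0.09, adjusted p = 8.232e-08) and then fell by 1.61 ± 0.10 from day 1 to day 2 (adjusted p = 3.582e-08). Gc, the vitamin D carrier, rose 3.15-fold at day 1 (1.65 ± 0.16, adjusted p = 8.346e-07). Tcn2, the vitamin B12 carrier taken up by megalin, fell by 1.33 ± 0.08 (adjusted p = 9.88e-09). Gif, the intrinsic factor that cubilin binds, was at most 0.0538 CPM. Apob rose 5.74-fold from day 1 to day 2 (2.52 ± 0.28, adjusted p = 7.369e-06), the same interval in which Dab2 made most of its rise. From day 1 to day 2 the list had 6 genes higher and 2 lower, against 29% and 25.6% of all genes. Between KO+N-KR and KO+WT, Trf alone was called, 0.63 ± 0.11 higher (adjusted p = 0.01899). Of all genes, 0.289% were called higher and 0.257% lower there.

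**Figure D4:**
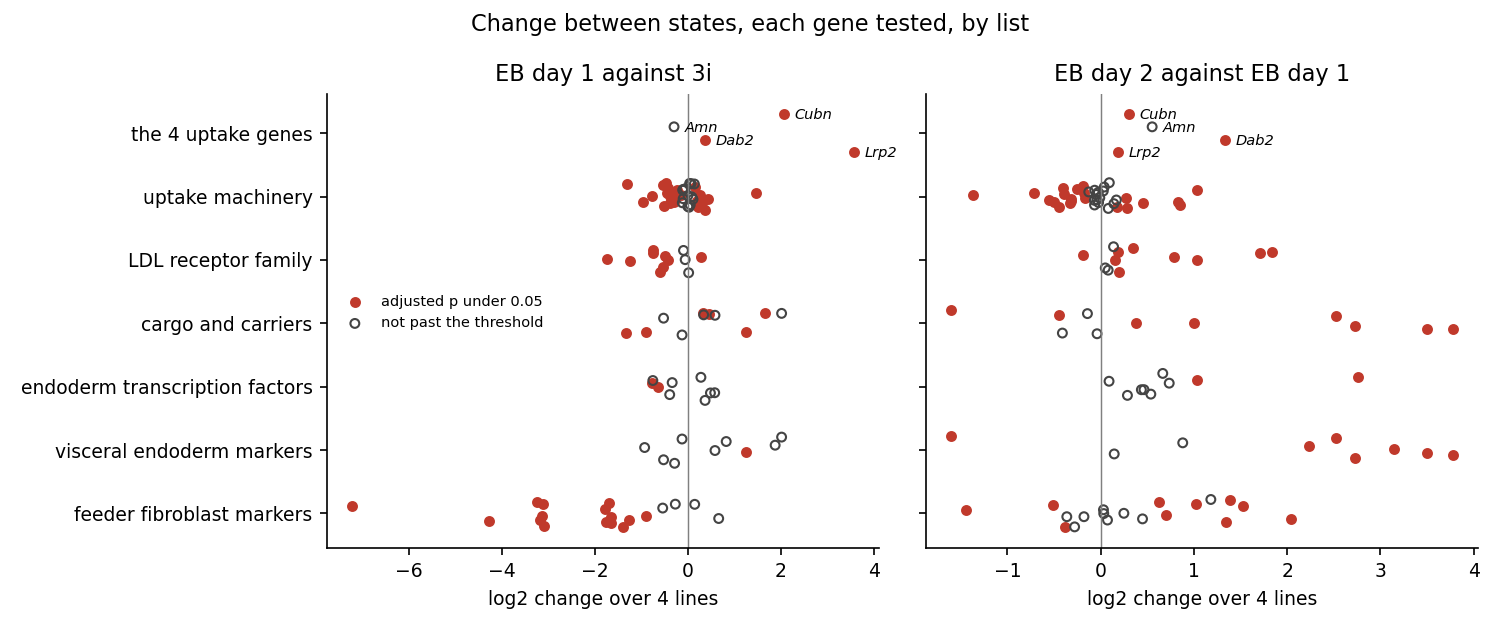
Change of each tested gene between states (log2, over 4 lines), by list; filled points passed an adjusted p of 0.05 and open points did not. At day 1 Lrp2 (3.58) and Cubn (2.06) stand far right of the LDL receptor family, whose median is -0.52.

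Likeness of pattern was measured as Pearson's r of log2 CPM over the 12 samples among 11696 genes that reached 5 CPM, as a description in which all points share the same lines and states. Among themselves, Cubn had r = 0.81 with Lrp2 and 0.80 with Dab2, and Amn had r = 0.44 with Cubn, 0.61 with Dab2 and -0.03 with Lrp2. The genes nearest to Lrp2 were Pcdh1, Nav2, Pml, Abl2 and Sema3e, each at 0.99. Pcdh1, a protocadherin, had 1.38 to 1.88 CPM at 3i and 23.1 to 37.3 in embryoid bodies. Nearest to Dab2 were Ctsh (0.94), a lysosomal protease, Clic6 (0.94), Mttp (0.91), which loads lipid onto Apob, Lamb1 (0.89), a laminin chain, and Stard10 (0.88). Nearest to Amn were 9030025P20Rik (0.91), Srgn (0.85), Pomt2 (0.80), Col4a1 (0.79) and Gata4 (0.75). Sox17, which did not reach 5 CPM and so was not ranked, had r = 0.84 with Amn, Gata6 had 0.58 and Sox7 0.45. The lowest Amn sample, KO+WT at day 1, rests on 7 reads. Nearest to Cubn were Mob2 (0.92), Ugdh (0.91), Ppfibp2 (0.90), Parp16 (0.90) and Dnajc3 (0.90). Mob2 spanned only 12.2 to 18.1 CPM and 9030025P20Rik only 11.3 to 15.6, so their likeness is one of shape and not of size.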

How the data were processed

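The deposited file is a single table of raw counts, with 23284 gene symbols. Of its 30 columns, 24 match library names in the labels and 6 were not used. Per the submitters' processing notes, STAR 2.5.2b and DESeq2 were used with build mm9; the counter, its strand setting and the gene models are not stated in those notes. The 2 libraries of each group were summed. The 12 sums (18017598 to 25160294 counts) were fitted with edgeR 4.0.16 in R 4.3.3 (TMM, filterByExpr, additive line and state, quasi-likelihood F-test, Benjamini-Hochberg, threshold 0.05), leaving 6 residual degrees of freedom and a common coefficient of variation of 7.96%. Each standard error is the absolute log2 change divided by the root of F. Ratios within a state used a prior count of 2. Alternatives were library totals without TMM, no low-count filter, DESeq2 1.42.0, fits to 24 libraries, and each replicate, state or line left out. The fit was also run on simulated data, and no result is drawn from that here. The 4 genes and all lists were chosen with earlier results of these data known. From each list, up to 4 called genes with the greatest change and at least 5 CPM in 1 sample are named, plus Lrpap1, Gata4, Gata6, Sox7, Sox17 and Hnf4a (1 other gene is not reported here); Col1a1 and levels named without a test were picked from the lists after their values were seen. Exon lengths and promoters come from GRCm38 annotations, so no mm9 coordinates are given.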

Additional observations from a re-analysis of the deposited data

Results flagged for a closer look

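In 3 cases the lines moved in opposite directions between successive states, and with 1 sample per line and state the difference between lines was not tested. Cubn from day 1 to day 2 changed by 0.68 in f/f, 0.23 in KO and 0.48 in KO+WT on the log2 scale, and by -0.088 in KO+N-KR. Amn from 3i to day 1 was 0.43 higher in KO and 0.14 higher in KO+N-KR, against -0.71 in f/f and -1.73 in KO+WT. The KO+WT value rests on 7 reads at day 1. Over the whole interval from 3i to day 2, Amn also split, with -0.32 in f/f against 0.67 in KO, 0.35 in KO+WT and 0.32 in KO+N-KR. Dab2 from 3i to day 1 was 0.36 higher in f/f, 0.36 higher in KO and 0.83 higher in KO+N-KR, against -0.34 in KO+WT.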

How the results depend on the processing

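For the 4 uptake genes, 316 of 332 alternative values over 32 results kept their direction and their side of the threshold, or moved by less than 1 SD, and 2 had the other sign (Amn in KO against f/f and Dab2 in KO+WT against f/f). Dab2 at day 1, Cubn from day 1 to day 2 and Lrp2 from day 1 to day 2 lost calls as given above, and Amn from day 1 to day 2 gained one in the fits to 24 libraries (adjusted p = 0.03624 with the replicate block and 0.03236 without). At day 1 in KO+WT against KO, a minimum of 10 CPM left 1 of 2 genes set apart by size, and in KO+WT against f/f at day 1 library totals left 0 of 1.

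Counts of all genes called between lines depended more on the setting, for reasons not tested. DESeq2 called 133 in KO+N-KR against KO+WT, against 85. Leaving out replicate 1 or 2 gave 787 to 939 in KO against f/f, against 1369. Replicate numbers did not pair libraries (0 of 66 correlations of deviations between groups exceeded 0.1). Fits to 24 libraries with the replicate block called 4792 in KO against f/f, 5344 in KO+WT against KO, 5368 in KO+N-KR against KO, 605 in KO+N-KR against KO+WT and 4132 in KO+WT against f/f. With no replicate block they called 4921, 5465, 5459, 659 and 4268 in that order. The fit to sums had called 1369, 2394, 2331, 85 and 1345. Without EB day 1 the edgeR counts were 0 (2303 at an unadjusted p under 0.05), 247, 341, 30 and 178. Without EB day 2, KO against f/f gave 346, KO+WT against KO 1256 and KO+N-KR against KO 1105. With library totals alone the split of higher and lower calls moved from 686 and 683 to 1062 and 315 in KO against f/f, from 539 and 806 to 758 and 628 in KO+WT against f/f, from 4860 and 5217 to 4043 and 6125 at day 1 against 3i, where the median of all genes moved from -0.02 to -0.11, and from 4513 and 3983 to 5076 and 3398 at day 2 against day 1. Depth limits Amn most, at 7 to 85 counts per sample.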
